A study of Mus musculus with 18 samples.

Results

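C/EBPα binding at 12 hr post-induction (hpi) was compared with that at 24 hpi in C10 cells, a pre-B cell line of mouse derived from HAFTL cells. C10 cells carry a C/EBPα-estrogen receptor fusion tagged with GFP, which β-estradiol moves into the nucleus. Cells of both time points received β-estradiol with IL-3 and CSF-1, and the labels differ only in the time after induction, while control cells received the solvent ethanol. Each time point was represented by 1 ChIP-seq library made with the same antibody (sc-61), out of 18 libraries analysed here for C/EBPα, C/EBPβ and PU.1, and both were sequenced on the GAIIx. C10 is a single line with a transgene, and the reads alone do not tell binding of the fusion from that of endogenous C/EBPα. The paper states that C10 cells no longer need the transgene at 24 hpi, earlier than endogenous C/EBPα is expressed. The genome of chromosomes 1 to 19 was divided into 12361722 bins of 200 bp, and the 20241 bins with 8 or more reads in either library, at equal depth, were compared. They made up 0.164% of the bins. There was 1 library per time point and no control library. The differences therefore have no replicate check, and no test between the libraries was made. All intervals cover counting error only, of reads or of sites within these libraries.

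C/EBPα is a basic leucine zipper protein that binds as a dimer to sites related to a palindrome and directs the formation of granulocytes and macrophages. When it is forced into pre-B cells, the B cell program is lost and a macrophage program is gained. PU.1, an ETS factor, shares many enhancers with C/EBPα in myeloid cells, EBF1 is a factor that specifies B cells, and AP-1 dimers of Fos and Jun proteins can bind next to C/EBP or pair with its relatives. C/EBPβ recognizes the same sequence as C/EBPα and is induced during the conversion.

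The sequences under 9 of the sites illustrate the letters searched for, and were picked for their matches. They show a C/EBP match at strong sites that differed little between the times, EBF1 matches at sites higher at 12 hpi, AP-1 or PU.1 matches at sites higher at 24 hpi, and, at *Bach2* and *Pde8a*, sites higher at 12 hpi with C/EBP letters alone. Each covers 200 bp around the centre of the reads, on the plus strand of mm9 from 5′ to 3′. Capitals mark matches to the letters TTGCNNAA (C/EBP) at *Id1*, *Psap*, *Vdr*, *Bach2*, *Pde8a* and *Gtf2a2*, TGATGCAA (C/EBP-ATF) in addition at *Id1*, TCCCNNGGG (EBF1) at *2410131K14Rik*, *Erg* and *Vdr*, TGACTCA or TGAGTCA (AP-1) at *Gtf2a2*, and GAGGAAGT (PU.1) at *S100a8*, each read on either strand. The letters were not exclusive, since TTGCGCAA, searched as the palindrome, is 1 form of TTGCNNAA.
*Id1* +5.51 kb: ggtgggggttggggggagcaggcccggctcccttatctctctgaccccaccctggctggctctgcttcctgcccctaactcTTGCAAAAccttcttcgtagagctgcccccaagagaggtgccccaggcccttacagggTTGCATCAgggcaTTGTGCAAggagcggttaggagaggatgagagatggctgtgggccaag
*Psap* -24.8 kb: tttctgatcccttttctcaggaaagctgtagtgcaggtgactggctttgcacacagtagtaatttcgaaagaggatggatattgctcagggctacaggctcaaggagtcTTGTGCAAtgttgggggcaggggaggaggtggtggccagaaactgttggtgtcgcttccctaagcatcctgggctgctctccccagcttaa
*2410131K14Rik* +132 kb: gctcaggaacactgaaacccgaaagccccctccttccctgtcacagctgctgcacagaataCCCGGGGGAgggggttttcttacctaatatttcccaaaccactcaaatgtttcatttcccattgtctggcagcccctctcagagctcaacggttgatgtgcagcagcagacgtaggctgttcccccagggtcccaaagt
*Erg* -17.4 kb: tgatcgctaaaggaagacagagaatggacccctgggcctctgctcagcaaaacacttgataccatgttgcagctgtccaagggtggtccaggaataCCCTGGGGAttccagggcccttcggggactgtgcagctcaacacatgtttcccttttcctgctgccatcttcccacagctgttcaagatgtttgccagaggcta
*Vdr* -3.79 kb: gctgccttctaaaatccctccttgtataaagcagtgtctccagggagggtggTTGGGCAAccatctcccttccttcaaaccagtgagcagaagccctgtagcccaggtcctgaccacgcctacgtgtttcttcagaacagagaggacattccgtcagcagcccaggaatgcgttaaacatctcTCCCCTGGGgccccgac
*Bach2* +17.4 kb: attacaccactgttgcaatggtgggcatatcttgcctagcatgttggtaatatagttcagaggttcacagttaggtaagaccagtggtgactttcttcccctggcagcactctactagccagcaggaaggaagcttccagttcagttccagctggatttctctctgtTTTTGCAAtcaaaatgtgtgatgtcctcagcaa
*Pde8a* -16.7 kb: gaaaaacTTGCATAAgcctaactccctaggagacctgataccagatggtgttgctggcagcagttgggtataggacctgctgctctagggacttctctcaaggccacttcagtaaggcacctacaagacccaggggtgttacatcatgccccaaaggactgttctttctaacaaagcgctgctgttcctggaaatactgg
*S100a8* -124 bp: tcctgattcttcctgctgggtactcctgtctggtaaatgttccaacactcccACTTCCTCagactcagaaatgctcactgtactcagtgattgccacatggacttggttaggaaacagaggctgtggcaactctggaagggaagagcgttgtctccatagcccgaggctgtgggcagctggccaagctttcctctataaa
*Gtf2a2* +12.3 kb: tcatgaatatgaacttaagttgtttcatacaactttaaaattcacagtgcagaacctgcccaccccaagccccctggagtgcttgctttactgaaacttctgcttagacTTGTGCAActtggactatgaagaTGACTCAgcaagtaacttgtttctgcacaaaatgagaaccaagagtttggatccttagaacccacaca
In mm9 the windows were chr2:152567396-152567595 (*Id1*), chr10:59715440-59715639 (*Psap*), chr5:118827522-118827721 (*2410131K14Rik*), chr16:95649950-95650149 (*Erg*), chr15:97744746-97744945 (*Vdr*), chr4:32521697-32521896 (*Bach2*), chr7:88341722-88341921 (*Pde8a*), chr3:90472769-90472968 (*S100a8*) and chr9:69872576-69872775 (*Gtf2a2*). The *Erg* and *Bach2* windows were in introns of these genes and the others between genes. The C/EBP match lay 13 bp from the centre of the reads at *Psap* and *Gtf2a2*, and the EBF1 match lay 0.5 bp from it at *Erg*. At *Pde8a* the match was at the edge, with its first base at position 8 of the window, counted from its 5′ end. At *Vdr*, the C/EBP match began at base 53 and the EBF1 match at base 184. The 2 matches of *Gtf2a2* began at bases 110 and 133, so that the AP-1 letters followed the C/EBP letters closely.

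More of the compared bins had their higher C/EBPα read count at 12 hpi than at 24 hpi. After thinning, each library held 5832857 reads, and 315079 reads lay in the bins at 12 hpi against 221363 at 24 hpi. These were 5.40% (5.38% to 5.42%, exact Clopper-Pearson interval) and 3.8% (3.78% to 3.81%) of the reads, a ratio of 1.42. Outside the bins the ratio was 0.983, and by chromosome it lay between 1.33 (chromosome 12) and 1.53 (chromosome 5) within the bins. A bin held a median of 11 reads at 12 hpi and 8 at 24 hpi. More reads at 12 hpi were found in 14989 bins (74.1%, 73.4% to 74.7%), more at 24 hpi in 4611 bins (22.8%) and equal numbers in 641. These shares come from the reads that chose the bins. As an alternative, 43617 bins were chosen by 4 or more reads in a random part of the reads and measured in the rest. Of these, 47.8% had more reads at 12 hpi and 27.8% at 24 hpi. This second set held more bins, measured in fewer reads and with more ties, so its shares do not isolate the effect of the choosing. Of the 20241 compared bins, 8917 reached 8 reads at 12 hpi alone, 2663 at 24 hpi alone and 8661 at both times. Just below the threshold, 7473 bins had 7 reads in the library with more reads, of which 5144 had them at 12 hpi and 2598 at 24 hpi; just inside it, 4166 bins had 8 reads, of which 3002 had them at 12 hpi and 1306 at 24 hpi. Whether the lower share of reads at 24 hpi reflects fewer bound molecules or a less efficient immunoprecipitation cannot be told apart with 1 library per time.

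A difference of at least 2-fold was found at 7611 bins higher at 12 hpi (37.6% of the bins) and at 1623 bins higher at 24 hpi (8.02%). The median log2 ratio of 12 over 24 hpi was 0.58. When the reads of 24 hpi were multiplied by 1.5 to bring this median to 0, 3835 bins (18.9%) were higher at 12 hpi and 3167 (15.6%) at 24 hpi. Touching bins were joined into 14336 sites, each measured in its strongest bin, of which 5430 (37.9%) were at least 2-fold higher at 12 hpi and 1243 (8.67%) at 24 hpi. Sites with few reads passed 2-fold most often, in part by construction. A bin needed 8 reads in 1 library, so the sites with the fewest reads in all could not be less than 2-fold apart. Of 5730 sites with 8 to 15 reads over both libraries, 57.6% were higher at 12 hpi and 16.6% at 24 hpi. Of 298 sites with 120 reads or more, 12 were higher at 12 hpi and none at 24 hpi (0 of 298, which allows up to 1.23%), although 284 of them had more reads at 12 hpi. The strongest sites thus nearly all had fewer reads at 24 hpi, mostly by less than 2-fold, with a median log2 ratio of 0.45.

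**Figure D1:**
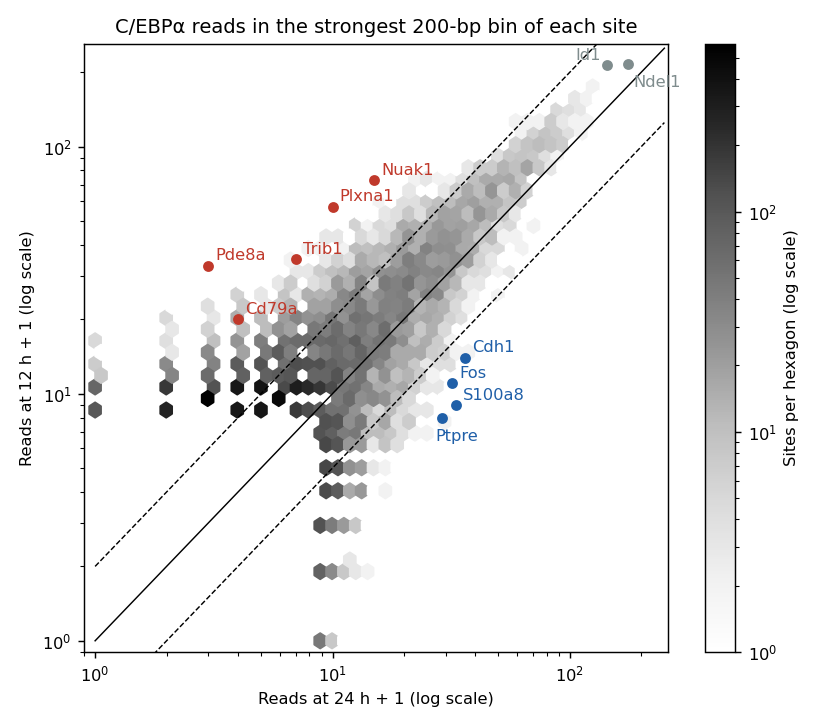
Reads of C/EBPα in the strongest 200-bp bin of each of 14336 sites at 24 hpi (x axis) and 12 hpi (y axis), each plus 1, on log axes; grey shows the number of sites, the solid line equal values and the dashed lines 2-fold. Most sites lie above the solid line, the strongest (*Ndel1*, *Id1*) lie above it within the dashed lines, and sites such as *Nuak1* with 72 and 14 reads or *S100a8* with 8 and 32 reads stand apart.

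To limit counting error, the following comparisons used the 6311 sites with 20 or more reads over both libraries (well-read sites), a limit set after the values were seen. Of these, 1463 (23.2%) were at least 2-fold higher at 12 hpi, 174 (2.76%) at 24 hpi, and 4674 were less than 2-fold apart. Their median log2 ratio was 0.46 with quartiles of 0.04 and 0.87. With the ratios centred, 471 well-read sites were higher at 12 hpi and 641 at 24 hpi. The 1573636 reads of 24 hpi that thinning had left out, which the classes did not use, gave means of 23.8 reads per 10000000 reads of the library (RP10M) at the sites higher at 12 hpi and 29.8 at those higher at 24 hpi. In the thinned reads the corresponding means were 20.5 and 39.0 at 24 hpi, and 50.7 and 17.8 at 12 hpi. The left-out reads thus lay nearer to the 12 hpi means than the thinned reads did in both classes, and no reads of 12 hpi were left out for the same comparison.

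The 10 sites with the most reads were all less than 2-fold apart, and all had more reads at 12 hpi, by 1.21-fold to 1.49-fold, although the exact interval of the ratio reached 1 at 3 of them, *Ndel1* and *Gm5614* included. The site with the most reads lay 135 bp before the TSS of *Ndel1*, a dynein regulator (chr11:68685395-68685594), with 215 reads at 12 hpi and 175 at 24 hpi. At *Id1*, whose product holds basic helix-loop-helix factors off DNA, a site 5.51 kb past the TSS (chr2:152567396-152567595) had 212 and 143 reads (1.48-fold, 1.19 to 1.85). The site 24.8 kb before *Psap*, which encodes a precursor of lysosomal activator proteins, had 194 and 139 reads. At the promoter of *Nfe2*, a basic leucine zipper factor gene, 152 and 113 reads were counted, and at that of *Mafg*, which encodes a dimer partner of Nfe2, 151 and 112. Further sites were *Btbd19* +1.86 kb (177 and 122 reads), *Mrps18a* -36.9 kb (170 and 114), *Jmjd1c* -70.4 kb (165 and 122) and *Gm5614* -23.5 kb (158 and 126). The *Ndel1*, *Nfe2* and *Gm5614* sites also held 8 or more reads in the C/EBPα, C/EBPβ and PU.1 libraries at 0 hpi, as did 280 of the sites. The other 7 of the 10 did not.

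Libraries that had no part in choosing the sites showed opposite time courses of C/EBPα in the classes. Well-read sites higher at 12 hpi had a median of 45.2 RP10M (quartiles 23.1 and 76.1) at 3 hpi and 11.6 (6.44 and 20.6) at 48 hpi. Well-read sites higher at 24 hpi had 12.0 (7.38 and 23.1) at 3 hpi and 28.3 (18 and 43.5) at 48 hpi. C/EBPα was above its 48 hpi level at 3 hpi at 88.9% of the former (87.1% to 90.4%), 64.2% of the sites less than 2-fold apart, and 24.1% of the latter (18% to 31.2%). The intervals of the 3 classes did not overlap, but they cover only the counting of sites within these libraries and are no test between times. At 60 min after induction, 79.2% of the sites higher at 12 hpi reached 10 RP10M, against 70.7% of those less than 2-fold apart and 31.0% of those higher at 24 hpi, and the medians were 35.3, 24.2 and 5.26. The library at 60 min came from another sequencer (HiSeq2000), and levels between libraries carry their different depths and enrichments. Before induction, the median was 5.78 RP10M at the former and 2.31 at the latter.

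**Figure D2:**
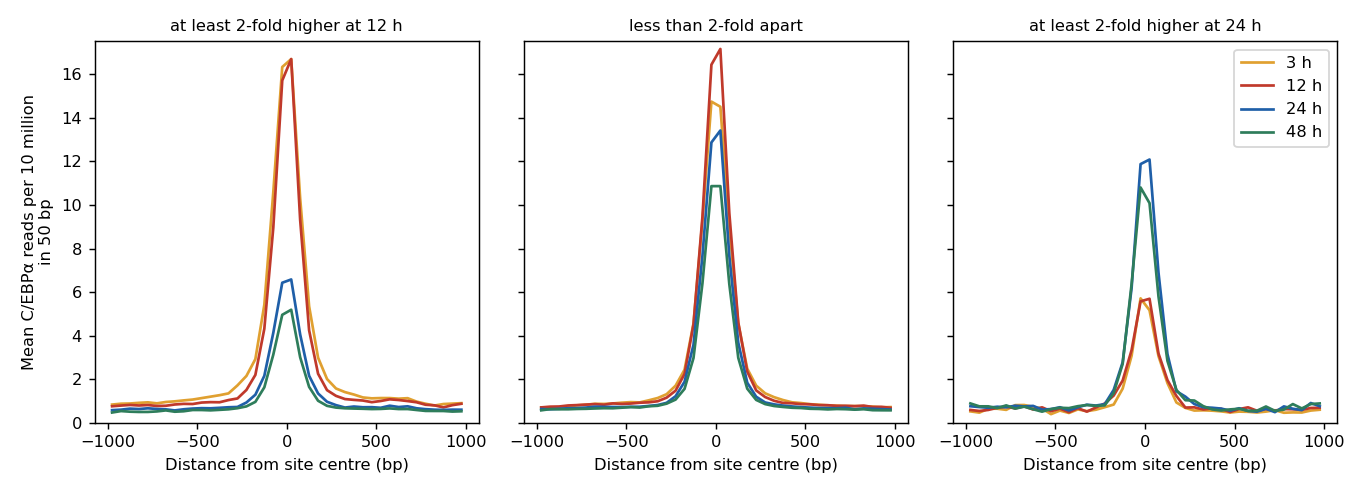
Mean C/EBPα RP10M in 50-bp steps (y axis) against the distance from the site centre (x axis, bp) at well-read sites of the 3 classes, for the libraries of 3, 12, 24 and 48 hpi. At sites higher at 12 hpi the curves of 3 and 12 hpi stand above those of 24 and 48 hpi, and at sites higher at 24 hpi the order is the opposite; the 12 and 24 hpi curves chose the classes.

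C/EBPβ and PU.1 differed between the classes as well. C/EBPβ had a median of 14.2 RP10M at 12 hpi and 20.2 at 48 hpi at sites higher for C/EBPα at 12 hpi, and of 10.6 and 41.5 at those higher at 24 hpi. C/EBPβ was higher at 48 than at 12 hpi at 68.8% (66.4% to 71.2%) of the former, at 86.9% of the sites less than 2-fold apart and at 93.7% (89.0% to 96.8%) of the latter. Between 12 and 24 hpi, 62.2%, 78.2% and 85.1% of the sites of these classes had more C/EBPβ at 24 hpi. The C/EBPβ libraries of 12 and 24 hpi held 2824293 and 3040876 reads, so that these levels rest on few reads per site. PU.1 had more RP10M at 12 than at 24 hpi at 81.7% (79.6% to 83.6%) of the sites higher for C/EBPα at 12 hpi, at 73.0% of the sites less than 2-fold apart, and at 41.4% (34.0% to 49.1%) of those higher at 24 hpi. Before induction, PU.1 reached 10 RP10M at 41.1% of the sites higher at 12 hpi, 39.7% of those less than 2-fold apart, and 16.1% (11% to 22.4%) of those higher at 24 hpi. At 48 hpi the shares were 40.2%, 58.3% and 56.9%. Seen from the other side, of 2484 well-read sites with 10 or more PU.1 RP10M at 0 hpi, 1.13% (0.750% to 1.63%) were higher at 24 hpi. Of the 3827 sites under that level, 3.82% (3.23% to 4.47%) were. This split was not particular to PU.1. With the same level, it was 0.88% against 3.27% for C/EBPα and 0.637% against 3.28% for C/EBPβ at 0 hpi. For C/EBPα at 3 hpi it was 1.89% against 10.1%, and C/EBPα at 60 min split in the same direction. For PU.1 at 0 hpi, the shares higher at 12 hpi were 24.2% and 22.5%, with overlapping intervals.

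**Figure D3:**
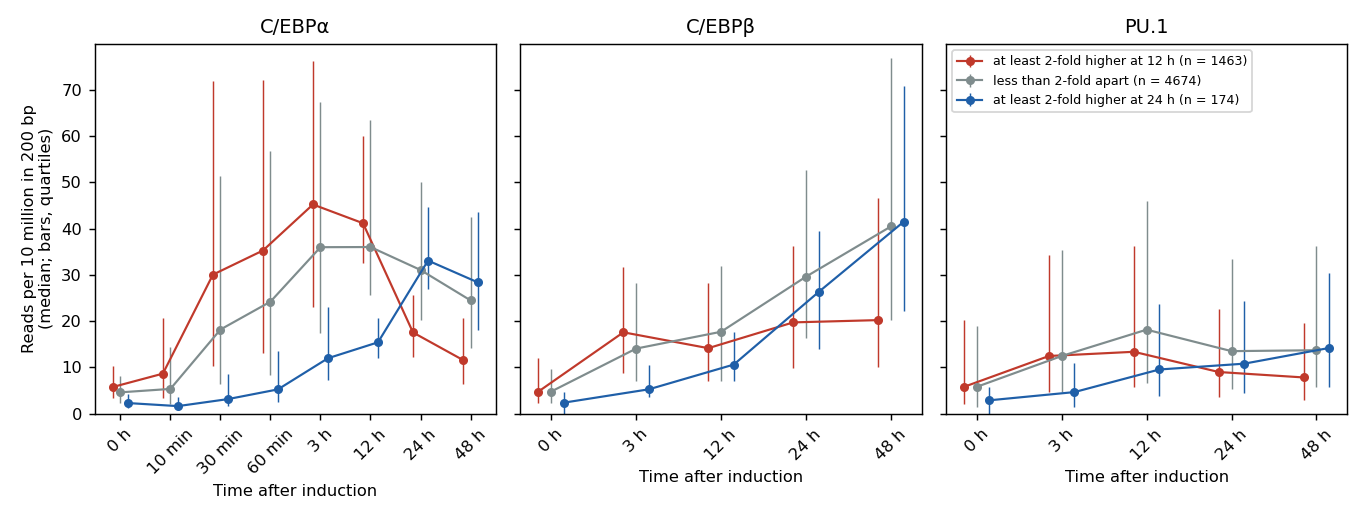
Median RP10M in 200 bp (y axis; bars, quartiles over sites) at well-read sites of the 3 classes against the time after induction (x axis, not to scale) for C/EBPα, C/EBPβ and PU.1, 1 library per point. C/EBPα falls from 45.2 at 3 hpi to 11.6 at 48 hpi at sites higher at 12 hpi and goes from 12.0 to 28.3 at sites higher at 24 hpi; the points of C/EBPα at 12 and 24 hpi chose the classes.

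C/EBP letters were found at all classes, whereas EBF1 and AP-1 letters went with opposite classes. The letters TTGCNNAA were present at 22.1% (21.0% to 23.3%) of all sites higher at 12 hpi, 28.4% (25.9% to 31.0%) of those higher at 24 hpi and 34.2% of the rest, against 9.28% of all 200-bp bins. The order of the first 2 shares turned with a threshold of 6 reads (15.1% and 14.5%) and with bins chosen in a random part of the reads (14.3% and 11.8%). In well-read sites these shares were 36.4%, 45.4% and 41.3%, and the match lay at a median of 22 bp from the centre. EBF1 letters were found at 15.7% (13.9% to 17.7%) of well-read sites higher at 12 hpi, 6.87% of those less than 2-fold apart and 2.87% (0.939% to 6.58%) of those higher at 24 hpi, against 1.87% of all bins. AP-1 letters showed the reverse order, with 5.95% (4.79% to 7.28%), 10.1% and 21.8% (15.9% to 28.7%), against 3.14% of all bins. After the ratios were centred, EBF1 letters were at 21.7% of the 471 sites higher at 12 hpi and 2.65% of the 641 sites higher at 24 hpi, and AP-1 letters at 5.73% and 16.8%. Centring moves the limits of the classes and not the order of the sites by ratio.

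When the well-read sites were ordered by their ratio in 5 groups of equal size, EBF1 letters went from 3.56% in the group furthest toward 24 hpi to 15.9% in that furthest toward 12 hpi, and AP-1 letters from 14% to 6.26%. The 556 sites with EBF1 letters had a median log2 ratio of 0.79 against 0.43 at the 5755 without, and 41.4% of them were at least 2-fold higher at 12 hpi, against 21.4%. The value was similar with C/EBP letters in the same window (0.75, 200 sites) and without them (0.81, 356 sites). The 598 sites with AP-1 letters had a median of 0.26 against 0.49. Of the 230 sites with both AP-1 and C/EBP letters, 10.0% were higher at 24 hpi, against 4.08% of the 368 sites with AP-1 letters alone.

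**Figure D4:**
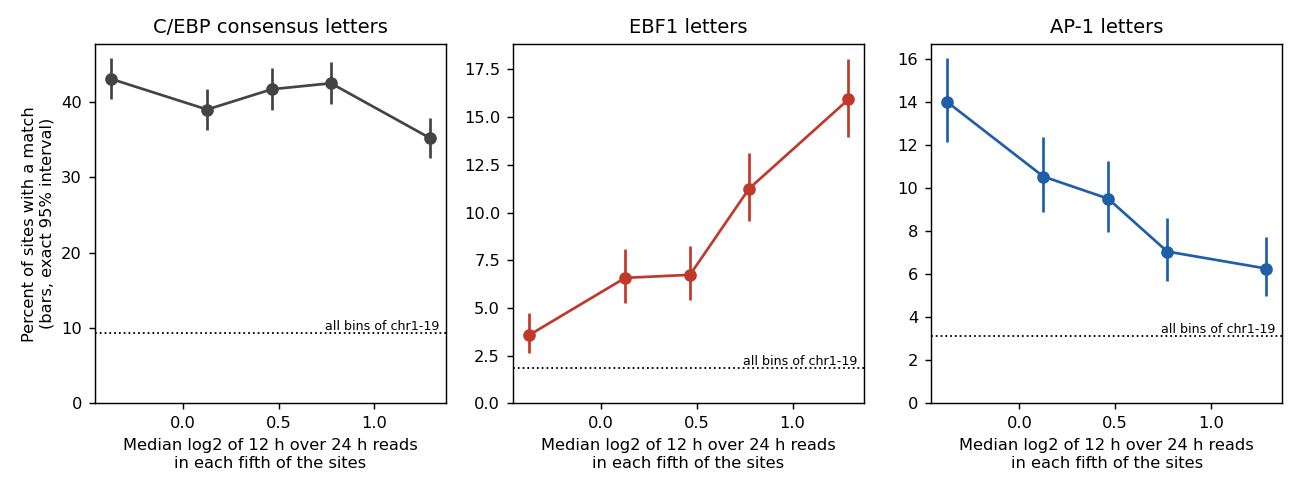
Percent of well-read sites with C/EBP, EBF1 or AP-1 letters (y axis; bars, exact 95% interval) in 5 groups of equal size ordered by the log2 ratio of 12 over 24 hpi (x axis, median of the group), with the share of all 200-bp bins as a dotted line. EBF1 letters go up to 15.9% toward 12 hpi, AP-1 letters go up to 14% toward 24 hpi, and C/EBP letters stay between 35.2% and 43.1%.

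Base composition moved with the ratio. Outside the compared bins, the ratio of 12 to 24 hpi reads went from 0.896 in bins with less than 35% GC to 1.14 in bins with 60% or more, and 48.4% of the compared bins of the latter kind were higher at 12 hpi against 23.3% of the former. Well-read sites higher at 12 hpi had a median GC content of 51.5% and those higher at 24 hpi 47.5%. Sites of like GC content were compared from 40% GC upward. The differences for EBF1 and AP-1 letters kept their direction, with overlapping intervals at 60% GC or more. That for C/EBP letters turned from 40% to 45% GC, where 17.8% of sites with and 16.9% without them were higher at 12 hpi. It also turned at 60% GC or more (33.8% and 27.4%), against 20.9% and 24.7% over all GC contents. From 45% to 50% GC, 43.1% (33.9% to 52.6%) of the 116 sites with EBF1 letters were higher at 12 hpi, against 18.6% (16.8% to 20.5%) of the 1759 without. From 40% to 45% GC the shares were 46.8% and 16.1%, and from 50% to 60% GC 41.9% and 25.8%; at 60% GC or more they were 35.4% (25% to 47.0%) and 28.0% (24.3% to 31.9%), with overlapping intervals. AP-1 letters went with a higher share of sites higher at 24 hpi from 40% to 45% GC (11% against 3.53%) and from 45% to 50% (6.63% against 2.86%).

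GC boxes (GGGCGG), bound by Sp factors, were at 10.3% (8.75% to 11.9%) of the well-read sites higher at 12 hpi and 2.87% (0.939% to 6.58%) of those higher at 24 hpi, against 2.01% of all bins. At well-read sites more than 1 kb from a TSS the shares were 5.07% and 2.48% (0.681% to 6.24%), and the interval of the first, 3.92% to 6.44%, overlapped that of the second. The other letters had overlapping intervals in both classes. RUNX letters (TGTGGTT) were at 10.3% and 11.5% of the well-read sites higher at 12 and 24 hpi, against 4.73% of all bins. PU.1 letters were at 7.59% and 8.62%, against 11.3% of the sites less than 2-fold apart and 1.2% of all bins. The C/EBP palindrome TTGCGCAA was rare, at 36 of 1463 well-read sites higher at 12 hpi and 1 of 174 higher at 24 hpi, against 0.0162% of all bins. C/EBP-ATF letters were at 6.22% and 4.60% (0.617% of all bins), the CRE letters TGACGTCA at 8 sites and none (0 of 174, which allows up to 2.10%; 0.111% of all bins), and paired ISRE letters (GAAANNGAA) at 7.66% and 5.75% (7.83% of all bins).

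Sites of both classes were mostly far from promoters. Within 1 kb of a TSS lay 15.1% (13.3% to 17.0%) of well-read sites higher at 12 hpi, 14.1% of those less than 2-fold apart and 7.47% (4.04% to 12.4%) of those higher at 24 hpi. The median distance from a TSS was 15910 bp, 14672 bp and 20272.5 bp. Introns held 45.7%, 44.2% and 43.1% of the centres. Among all sites, those within 1 kb of a TSS had a median log2 ratio of 0.74 with a median of 15 reads, but among well-read sites their ratio was 0.50, against 0.42 for sites over 100 kb from any TSS.

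The sites furthest toward 12 hpi, by the bound of the exact interval of the share of reads from 12 hpi, included a site 132 kb past the TSS of *2410131K14Rik* (chr5:118827522-118827721), with 46 reads at 12 hpi and 4 at 24 hpi (11.5-fold, 4.20 to 44.0). A site 16.7 kb before *Pde8a*, a cyclic AMP phosphodiesterase gene (chr7:88341722-88341921), had 32 and 2 reads. Both were bound early and lost late: C/EBPα at 3 hpi was 109 and 134 RP10M, and at 48 hpi 1.29 and 6.44. *Hddc2* -51.0 kb and *Thoc3* +43.4 kb had 16 reads at 12 hpi and 0 at 24 hpi, with 79.3 and 50.7 RP10M at 3 hpi. Against a floor of 3 reads their bins were 5.33-fold higher at 12 hpi, while the exact interval of the ratio began at 3.86. The *Tmco1* promoter (16 and 0 reads), *Dusp2* -931 bp (14 and 0), *Runx3* +40.5 kb and *Itgb1* -30.6 kb (15 and 0 each), *Psap* -14.1 kb (20 and 1) and *AI480653* +112 kb (21 and 1) completed the 10. Of these, *Tmco1*, *Dusp2* and *Runx3* had no more than 7.38 RP10M at 3 hpi. At *Tmco1*, *Runx3* and *Itgb1*, reads counted without thinning within 200 bp on either side of the centre were less far apart, as given below. In the left-out reads of 24 hpi, the 10 sites had a mean of 11.4 RP10M, against 2.91 in the thinned reads and 37.5 at 12 hpi.

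The 10 sites furthest toward 24 hpi by the same rule were weaker. *Uxs1* +13.5 kb had 1 read at 12 hpi and 16 at 24 hpi, *C130039O16Rik* +19.5 kb had 0 and 10, and the other 8 had 0 and 9. Against a floor of 3 reads these bins were 3.00-fold higher, while the exact interval of the ratio began at 1.97. The 8 sites were *Prim2*, *Fam26f*, *Gtf2a2*, *Slc39a14*, *Gm1587*, *Osbpl9* and 2 sites near *C130026I21Rik*. In the 200 bp around the centre of the reads, which need not lie in 1 bin, *Prim2* had 8.57 RP10M at 12 hpi and 17.6 at 24 hpi. Their left-out reads gave a mean of 11.4 RP10M at 24 hpi, against 16.6 in the thinned reads and 2.06 at 12 hpi, and only 4 of the 10 had more C/EBPα at 48 than at 3 hpi. At *Slc39a14*, which encodes a metal ion transporter, C/EBPα was at 0 reads at 3 hpi and 18 RP10M at 48 hpi, and PU.1 went from 11.6 at 0 hpi to 98.2 at 24 hpi.

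The same ranking among well-read sites, chosen after the values were seen, gave 15 sites for each time. All 15 toward 12 hpi had more C/EBPα at 3 than at 48 hpi, with a median of 87.6 and 5.15 RP10M, and 8 of them held EBF1 letters. *Nuak1* +281 kb had 72 and 14 reads (5.14-fold, 2.88 to 9.87), *1700028I16Rik* -7.56 kb had 82 and 19, *Plxna1* +19963 bp 56 and 9, *Mdfi* -44.0 kb, in a coding exon of *Foxp4*, 37 and 6, and *Med13l* -65.3 kb 33 and 4. Of those without EBF1 letters, a site 504 bp before *Hmga1*, a chromatin protein gene, had 27 and 3 reads. Toward 24 hpi, 14 of 15 sites had more C/EBPα at 48 than at 3 hpi (medians of 50.3 and 12.0), and none held EBF1 letters. Of all well-read sites higher at 12 and 24 hpi, 15.7% and 2.87% held EBF1 letters. AP-1 letters were at 1 of the 15 sites toward 12 hpi and 3 of the 15 toward 24 hpi, against 5.95% and 21.8% of these classes. A site 7.33 kb before a TSS of *Ptpre*, a receptor tyrosine phosphatase gene, had 7 and 28 reads (4-fold higher, 1.71 to 10.8), with 0.922 RP10M at 3 hpi and 63.1 at 48 hpi. *Slc25a37* +11.3 kb, at the mitoferrin gene, had 21 and 53 reads, *Cdh1* +8.02 kb, at the E-cadherin gene, 13 and 35, the *Clpb* promoter 7 and 30, and *Blvra* -194 bp, at the biliverdin reductase gene, 6 and 22. A site 11 kb past the TSS of *Gm7535*, within an intron of the formyl peptide receptor gene *Fpr3*, had 13 and 38 reads.

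Sites were assigned to the protein-coding gene with the nearest TSS within 100 kb, which held for 13095 sites at 6509 genes. Of these sites 38.4% were higher at 12 hpi and 8.61% at 24 hpi, and of the 5650 well-read ones 23.5% and 2.78%. These are the values against which the gene lists are to be read, and no list was tested.

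Near the genes of the C/EBP and PU.1 family, 11 of 30 sites were higher at 12 hpi and 1 at 24 hpi, with a median log2 ratio of 0.56 against 0.58 for all genes. *Cebpb* had 18 sites, of which 13 had more reads at 12 hpi. The strongest lay 65.2 kb past its TSS (156 and 104 reads), and a weaker one nearby at 62.8 kb had 16 and 5. *Sfpi1*, which encodes PU.1, had 8 sites, all with more reads at 12 hpi (248 and 161 reads in all); the strongest was 663 bp past the TSS (130 and 90). A site 257 bp before *Ddit3*, which encodes the C/EBP relative CHOP, had 34 and 31 reads. For the AP-1 family, 9 of 29 sites were higher at 12 hpi and 1 at 24 hpi. That one lay 5.01 kb before *Fos*, with 10 and 31 reads (3.10-fold higher, 1.48 to 7.09), while another *Fos* site at 16.7 kb past the TSS had 35 and 31. *Atf3* -18.1 kb had 54 and 27 reads, *Junb* -1.10 kb 66 and 46, and *Batf* -27.1 kb 35 and 37.

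Near the genes of other myeloid regulators, 29 sites (28.7%) were higher at 12 hpi and 8 (7.92%) at 24 hpi. *Irf8*, a factor of monocyte formation, had 6 sites, all of them at least 2-fold higher at 12 hpi (69 and 20 reads in all), against 38.4% of the sites of all genes. These 6 sites held few reads, and of all sites with 8 to 15 reads over both libraries 57.6% were higher at 12 hpi. *Klf6* had 9 sites, none higher at 12 hpi and 4 higher at 24 hpi (112 and 136). *Hhex* had 7, of which 2 were higher at 24 hpi. *Runx1* had 18 sites with 326 and 241 reads, the strongest 18.3 kb before the TSS (145 and 97). *Klf13* +12.7 kb had 43 and 14 reads. *Vdr* -3.79 kb, at the vitamin D receptor gene, had 22 and 6, and *Bhlhe40* -496 bp 18 and 4.

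Of 104 sites of myeloid receptor genes, 22 (21.2%) were higher at 12 hpi and 14 (13.5%) at 24 hpi, with a median log2 ratio of 0.36, but among the 63 well-read sites the numbers were 14 (22.2%) and 4 (6.35%). *Itgb2*, the integrin β chain of Mac-1, had 3 sites, all with more reads at 24 hpi (24 and 47 in all). *Itgam*, the α chain of Mac-1, had 2 sites, both with more reads at 24 hpi (18 and 30) but less than 2-fold apart. All 3 *Cx3cr1* sites had more reads at 24 hpi (31 and 61), the strongest difference with 5 and 16 reads 18.7 kb past the TSS. *Ccr1* -30 bp had 5 and 15 reads, but the other of its 2 sites was higher at 12 hpi (39 and 32 reads in all). In the other direction, 5 of 7 sites of the interferon-γ receptor gene *Ifngr2* were higher at 12 hpi (168 and 93 reads in all), and all 8 *Tgfbr2* sites had more reads at 12 hpi (139 and 75). *Csf1r* (44 and 31 reads in all), *Itgax* (48 and 31) and *Tyrobp* (99 and 58) also had more reads at 12 hpi. Of the 63 well-read sites of the list, 44 (69.8%) had more reads at 12 hpi, against 75.3% of the well-read sites of all genes. The strongest site of the list, 43.6 kb before *Tlr2*, had 132 and 97.

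Lysosome, oxidase and protease genes had 66 sites, 13 (19.7%) higher at 12 hpi and 7 (10.6%) at 24 hpi. *Psap* had 10 sites, 3 higher at 12 hpi and 2 at 24 hpi, against 38.4% and 8.61% of the sites of all genes. *Ctsd* -11.4 kb had 57 and 60 reads, *Ncf1* -3.15 kb 121 and 87, *Lyz1* -9.13 kb 73 and 55, and *Ncf4* +13.6 kb 50 and 15. All 3 sites of *Mmp12*, the macrophage elastase gene, had more reads at 24 hpi (51 and 77). Of 11 sites of granule protein genes, 3 were higher at 12 hpi and 2 at 24 hpi. The *S100a8* promoter (chr3:90472769-90472968), which holds PU.1 letters, had 8 and 32 reads (4-fold higher, 1.81 to 10.0), with 15.7 RP10M at 3 hpi and 50.3 at 48 hpi. PU.1 there was 1.45 RP10M at 0 hpi, 24.3 at 24 hpi and 47.0 at 48 hpi. The *Mpo* site had 11 and 25 reads, *Camp* -187 bp 91 and 76, *Hp* -50 bp 78 and 75, *Prtn3* -1.67 kb 97 and 61, and *Elane* -1.67 kb, at the neutrophil elastase gene, 23 and 6.

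Of 48 sites of cytokine and chemokine genes, 12 were higher at 12 hpi and 3 at 24 hpi. The promoter of *Ptgs2*, the inducible cyclooxygenase gene, had 64 and 18 reads (3.56-fold, 2.08 to 6.38), whereas a site 64.9 kb past the TSS had 133 and 85. *Il6* -64.8 kb had 110 and 94, *Ccl2* -28.6 kb 107 and 84, and *Il1b* +10.7 kb 85 and 82. Of 128 sites of signalling feedback and survival genes, 42 were higher at 12 hpi and 13 at 24 hpi. *Dusp2* had 3 sites, all higher at 12 hpi (42 and 11 reads). *Trib1*, whose product leads C/EBPα to degradation, had 16 sites, 5 higher at 12 hpi and 3 at 24 hpi. Its site 4.29 kb past the TSS had 34 and 6 reads, with 149 RP10M at 3 hpi and 6.44 at 48 hpi, while that 96.1 kb past the TSS had 110 and 63. *Tnfaip3* +70.3 kb had 24 and 7, *Dusp6* +7.39 kb 143 and 86, *Socs3* +22.6 kb 91 and 48, and *Zfp36l2* +83.5 kb 71 and 61.

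Of 69 sites of B lineage genes, 32 (46.4%) were higher at 12 hpi and 4 (5.80%) at 24 hpi, with a median log2 ratio of 0.82. Among the 29 well-read ones, 8 (27.6%) and 1 were, close to the 23.5% and 2.78% of all genes. Their median log2 ratio was 0.38, against 0.47 at the well-read sites of all genes. All 3 sites of *Cd79b* (29 and 11 reads) and the 1 of *Cd79a* (19 and 3) were higher at 12 hpi; these genes encode the signalling chains of the B cell receptor. The *Cd79b* sites held few reads, and of all sites with 8 to 15 reads over both libraries 57.6% were higher at 12 hpi. At the *Cd79a* promoter PU.1 was at 116 RP10M at 0 hpi, 137 at 3 hpi, 158 at 12 hpi, 58.6 at 24 hpi and 29.4 at 48 hpi. *Igll1* +6.55 kb, at a surrogate light chain gene, had 27 and 5 reads, and *Bach2* +17.4 kb, at a repressor gene of B cells, 22 and 6. *Erg* had 9 sites, 4 of them higher at 12 hpi. The one in the gene 17.4 kb before a TSS, with EBF1 letters, had 21 and 2 reads (an interval of the ratio of 2.57 to 92.4), and that 61.1 kb past the TSS had 51 and 17, but that 5.46 kb before the TSS had 44 and 47. The C/EBPα levels at 48 hpi at the *Igll1*, *Bach2* and *Erg* -17.4 kb sites were between 2.58 and 3.87 RP10M. *Ikzf1* had both a site with 67 and 44 reads and one with 16 and 4. In the other direction, both sites of *Cnr2* (20 and 40 reads in all) and 3 of the 6 of *Bcl11a* (67 and 74) had more reads at 24 hpi.

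Cell cycle genes had 58 sites, 27 (46.6%) higher at 12 hpi and 3 (5.17%) at 24 hpi, but of the 28 well-read ones 7 (25%) and 1 were, near the shares of all genes. *Gadd45g* +56.8 kb had 50 and 12 reads (4.17-fold, 2.19 to 8.60), and both sites of the gene were higher at 12 hpi. *Cdkn1a* +13.4 kb, at the p21 gene, had 74 and 33. *Ccnd2*, a cyclin D gene, had 7 sites, 4 of them higher at 12 hpi and 1 at 24 hpi, and *Ccnd3* had 9, with 4 and none. The strongest *Myc* site, 69.2 kb past the TSS, had 63 and 69 reads. Among well-read sites of the remaining lists, those higher at 12 hpi were 2 of 15 for the C/EBP and PU.1 family, 4 of 15 for the AP-1 family, 11 of 48 for other myeloid regulators, 7 of 40 for lysosome, oxidase and protease genes, 2 of 8 for granule protein genes, 3 of 33 for cytokine and chemokine genes and 10 of 69 for signalling feedback and survival genes, and 0, 1, 2, 2, 2, 1 and 1 were higher at 24 hpi. Over the 10 lists, 27 sites with 20 or more reads were at least 3-fold apart, 22 toward 12 hpi and 5 toward 24 hpi; the latter included those at *Fos*, *S100a8*, *Cx3cr1* and *Ccr1*.

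**Figure D5:**
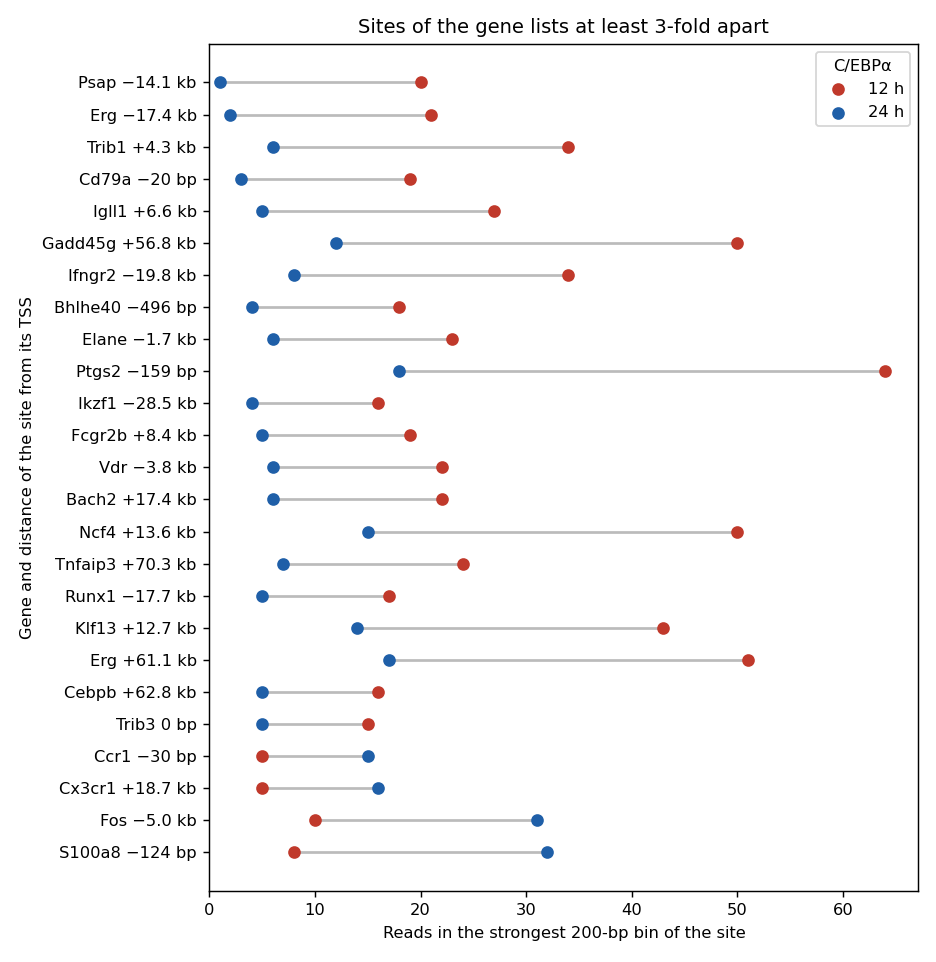
Reads in the strongest 200-bp bin (x axis) at 12 hpi (red) and 24 hpi (blue) for 25 of the 27 sites of the gene lists that were at least 3-fold apart with 20 or more reads, with the gene and the distance from its TSS (y axis), ordered by ratio. The 21 upper sites had more reads at 12 hpi, and the 4 lowest, at *Ccr1*, *Cx3cr1*, *Fos* and *S100a8*, had more at 24 hpi.

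Genes outside the lists, named after their values were seen, also had sites of 1 kind. All 6 sites of *Cecr5* (149 and 49 reads) were higher at 12 hpi. All 4 sites of *Siglec1*, a sialic acid receptor gene of macrophages (27 and 67), and all 3 of *Fam20c* (14 and 49) were higher at 24 hpi. Of 1460 genes with 3 or more sites, 1181 had a site higher at 12 hpi, 410 a site higher at 24 hpi and 293 had both.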

How the data were processed

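The samples were C10 cells after induction, profiled by ChIP-seq in 1 library per factor and time point (8 libraries for C/EBPα, 5 for C/EBPβ and 5 for PU.1). The authors aligned reads to mm9 with ELAND or Bowtie, kept unique reads without mismatches and deposited the chromosome, start, end and strand of each read, with no score, signal or normalization; counts were made here. C/EBPα had 5832857 reads on chromosomes 1 to 19 at 12 hpi and 7406493 at 24 hpi, 36 bases long. Reads were counted once per position and strand, moved 75 bp inward and thinned at random to 5832857. Sites were runs of touching bins. Letters were searched on both strands of NCBIM37 in the 200 bp around the centre, and genes were those of GENCODE vM1. A pseudocount of 1 was used for log2 ratios. Python 3.11.15, numpy 2.4.6, pandas 2.3.3 and SciPy 1.17.1 were used, and the steps were tested on simulated data.

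The sites, gene lists and letters were chosen with earlier results of these data known. Named sites were the 10 with the most reads, the 10 furthest toward each time, leaving out sites with 8 or more reads in all 3 libraries at 0 hpi, and per list the 4 genes with the strongest sites and every site past 3-fold with 20 or more reads. Well-read sites, the ranking among them and genes with many sites were added after the values were seen. PU.1 at 0 hpi had 1 line without a position, which was left out. A few of the named sites are not reported here.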

Additional observations from a re-analysis of the deposited data

How the results depend on the processing

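No paired analysis was possible because each time point had 1 library and the labels give no replicate numbers. Sites with few reads have wide counting intervals of their ratios, and no replicate bounds the spread between libraries.

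With a threshold of 6 reads there were 43208 bins, 18176 of them higher at 12 hpi and 6987 at 24 hpi, 67.8% had more reads at 12 hpi, and C/EBP letters were at 15.1% and 14.5% of the sites higher at 12 and 24 hpi. With 12 reads the values were 9798, 3100, 402, 77.8%, 31.5% and 44.4%. Without thinning, where 24 hpi needed more reads to reach the scaled threshold, 761 bins were higher at 24 hpi, 81.8% had more reads at 12 hpi and 34.9% of the sites higher at 24 hpi had C/EBP letters. The share of bins with more reads at 12 hpi was 73.4% with shifted bins, 75.4% with equal reads outside the bins, 74.7% without the region around *Sfi1*, and 75.5% with the 24 hpi reads scaled by the background ratio of their GC class, where C/EBP letters were at 23.3% of sites higher at 12 hpi; the last 2 alternatives were chosen after seeing the data.

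Centred ratios gave 3835 bins higher at 12 hpi, 3167 at 24 hpi and 51.8% with more reads at 12 hpi, C/EBP and EBF1 letters at 19.7% and 21.7% of sites higher at 12 hpi, and C/EBPα above its 48 hpi level at 3 hpi at 93.0% and 34.9% of the well-read sites higher at 12 and 24 hpi. A fold of 1.5 gave 2650 bins higher at 24 hpi, C/EBP and EBF1 letters at 25.3% and 13.2% of sites higher at 12 hpi, and early C/EBPα at 84.2% and 32.3%. A fold of 3, which for 12 hpi takes the same bins by construction, gave 3835 and 708 bins, C/EBP letters at 19.7% and 24.9%, EBF1 letters at 21.7% and 0.0%, AP-1 letters at 37.5% of sites higher at 24 hpi, and early C/EBPα at 93.0% and 12.5%. With classes chosen in a random part of the reads (4 or more) and measured in the rest, there were 43617 bins, 3193 were higher at 24 hpi in both parts, 47.8% had more reads at 12 hpi against 27.8% at 24 hpi, C/EBP letters were at 14.3% and 11.8%, and early C/EBPα at 81.6% and 37.7%. EBF1 letters stayed between 13.2% and 21.7% at well-read sites higher at 12 hpi and at no more than 3.47% at those higher at 24 hpi over the 21 alternatives, and AP-1 letters between 5.45% and 7.01%, and 16.4% and 37.5%. Within 50 kb of a TSS, sites higher at 24 hpi numbered 0 for the C/EBP and PU.1 family and 5 for other myeloid regulators. The 117 named sites were also counted within 200 bp on either side of the centre without thinning. None of those at least 2-fold apart changed direction, and a change of direction was not counted at the others. *Tmco1*, *Runx3*, *Itgb1* and *Prim2* left their counting interval, with log2 ratios of 1.48, 1.64, 1.65 and -0.62. The causes of these changes were not tested beyond the construction of each alternative.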

Other observations

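The gene with the most sites was *Sfi1*, which had 63 sites, 51 of them well-read, in a region where 35 of the sites also held 8 or more reads in the C/EBPα, C/EBPβ and PU.1 libraries at 0 hpi. Unlike the sites as a whole, 45 of the 63 had more reads at 24 hpi and 16 at 12 hpi (987 and 1184 reads, median log2 ratio -0.22), with a median of 26.6 C/EBPα reads per 10000000 reads of the library before induction.

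The distance between the strands of reads around the compared bins was 141 bp at 12 hpi and 156 bp at 24 hpi.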
